A study of Mus musculus with 28 samples.

Results

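Messenger RNA of 8 nuclear receptor coregulator genes was measured in the dorsal hippocampus of male C57Bl6 mice. The genes were taken by symbol from a list of named coactivators and corepressors: Ncoa1, Ncoa2, Ncoa3, Crebbp, Ep300, Ppargc1a, Ncor1 and Nrip1. All 8 were matched among the 50686 genes of the count table, and all 8 were among the 16735 genes with enough counts to be tested. The 28 libraries fell into 6 groups. Basal (n = 4) had neither auditory fear conditioning, in which a tone is paired with an aversive stimulus, nor treatment. The other 5 groups were conditioned and received vehicle (Vehicle, n = 4) or a substance labelled Cort, RU486, C108 or C118 (n = 5 each), which the series describes as ligands of the glucocorticoid receptor. RU486 is mifepristone, an antagonist of that receptor, and C108 and C118 are known here only by their codes. All animals carried the same strain label and no transgene or deletion is named. Doses, times of sampling and the ages of the mice were not found in the labels. Conditioning and treatment both separate the ligand groups from Basal, so their parts in those differences cannot be told apart. Vehicle likewise differs from Basal in conditioning and in vehicle treatment, with any handling, and these were not separated. The labels do not say whether each library came from a separate mouse, so p-values measure the spread between these libraries.

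Nuclear receptors bind DNA as hormone-sensitive transcription factors and act through coregulators that they recruit on binding a ligand. The p160 coactivators (Ncoa1, Ncoa2 and Ncoa3, also called SRC proteins) dock on agonist-bound receptors and bring in the histone acetyltransferases CBP (Crebbp) and p300 (Ep300). Corepressors such as NCoR1 (Ncor1) and RIP140 (Nrip1) bring in histone deacetylases and other repressors, and NCoR1 can be recruited by a glucocorticoid receptor that holds RU486. In the hippocampus, where glucocorticoid and mineralocorticoid receptors are abundant, the ratio of coactivators to corepressors is one determinant of how a given ligand acts.

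Gene count totals were 16.2 to 20.3 M per library (M, 10 to the power of 6), with a median of 19.1 M. Levels are given in CPM, counts per 10 to the power of 6 gene counts on TMM-adjusted library sizes. Hippocampal markers were present in every library, with summed levels of 537 to 1039 CPM for dentate gyrus (10 of 10 markers), 393 to 1111 CPM for CA1 (8 of 8) and 154 to 266 CPM for CA3 (7 of 7), and none at 0. Markers of neighbouring tissue were present as well: 13 of 14 thalamus markers were tested and summed to 163 to 913 CPM, and the 10 choroid plexus markers summed to 202 to 6802 CPM. Vehicle 16 had the highest thalamus sum and the lowest CA1 sum, and Vehicle 29 had the lowest dentate gyrus and CA3 sums. The numbers are the sample numbers of the titles. In bulk tissue, fewer cells of a type and less RNA per cell cannot be told apart.

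Promoter sequences are shown for Ppargc1a, the gene with the lowest p over all groups, and for Ncoa1, the most abundant p160 gene per length, so that their motif content and base composition can be compared. The windows come from RefSeq on GRCm38.p6 and run from 250 bases before to 50 bases after the transcript start, 300 bases in all. Ppargc1a lies on the minus strand at chr5:51567676-51567975 and Ncoa1 on the minus strand at chr12:4477133-4477432. Capitals mark a match to a searched motif.
Ppargc1a: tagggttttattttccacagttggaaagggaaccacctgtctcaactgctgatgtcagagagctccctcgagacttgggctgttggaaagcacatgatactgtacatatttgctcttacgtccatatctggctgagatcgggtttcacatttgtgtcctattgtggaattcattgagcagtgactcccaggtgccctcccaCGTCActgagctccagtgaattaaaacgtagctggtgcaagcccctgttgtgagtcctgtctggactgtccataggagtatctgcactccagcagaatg
Ncoa1: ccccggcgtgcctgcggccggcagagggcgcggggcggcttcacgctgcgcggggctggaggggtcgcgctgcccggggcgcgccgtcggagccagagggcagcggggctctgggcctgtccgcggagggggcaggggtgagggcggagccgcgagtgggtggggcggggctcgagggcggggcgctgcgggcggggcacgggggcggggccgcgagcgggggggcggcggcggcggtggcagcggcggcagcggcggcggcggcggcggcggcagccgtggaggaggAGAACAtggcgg
Both strands were searched for the palindromic glucocorticoid response element, AGAACA (a single arm of that element), TGACGTCA (the full cAMP response element), TGACG (the shorter form that the full element contains) and CACGTG (the E-box bound by clock and Myc-type factors). Of 32851 windows in the RefSeq table, 0.00913% held the palindromic element, 18.97% held AGAACA, 1.79% held TGACGTCA, 20.8% held TGACG and 7.15% held CACGTG. The Ppargc1a window held TGACG once, read as CGTCA on the printed strand and starting at base -49 from the transcript start. The Ncoa1 window held AGAACA once, at base 39 after the start. Windows of 6 of the 8 genes were matched (8 windows, with Ncor1 and Nrip1 having a pair each), and Ncoa2 and Ncoa3 were not matched. Among the other windows, only the first Ncor1 window held a match, AGAACA read as TGTTCT at bases -185 and -12. The 2 printed windows also differ in base composition: G and C made up 48.7% of the Ppargc1a window, with 5 CpG, against 84.7% of the Ncoa1 window, with 49 CpG, beside medians of 52.7% and 7 CpG over all windows. These matches describe letters and were not tested as binding sites.

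Per kilobase of exonic sequence, Ncoa1 and Ncor1 stood far above the other 6 genes. Over all 28 libraries the level was 25.3 ± 2.78 CPM per kb (SD, n = 28) for Ncoa1 and 24.01 ± 2.15 for Ncor1, a gap smaller than the larger SD. Ncoa2 followed at 6.71 ± 0.624 CPM per kb, and the gaps above and below it both exceeded the SD. Ppargc1a (5.96 ± 0.653), Nrip1 (5.72 ± 0.6004), Ep300 (5.48 ± 0.651), Ncoa3 (4.997 ± 0.472) and Crebbp (4.55 ± 0.475 CPM per kb) came next, and none of these neighbours in the order differed by more than its SD. All 8 lay above 4.17 CPM per kb, the median of the tested genes with a known exonic length. A coactivator and a corepressor thus held the highest levels, and the p160 family spanned most of the range.

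No coregulator gene of the 8 passed an adjusted p of 0.05 in any of the 15 pairwise comparisons or in the test for any difference among the 6 groups (edgeR's quasi-likelihood test, Benjamini-Hochberg adjustment over all 16735 genes). In the test over all groups, 4.73% of all tested genes were called, and the lowest adjusted p among the 8 was 0.186, for Ppargc1a. Adjusted p for the other 7 genes in that test ranged from 0.482 for Crebbp to 0.964 for Ncoa2. At an unadjusted p under 0.05, Ppargc1a alone among the 8 passed, beside 18.6% of all genes.

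**Figure D1:**
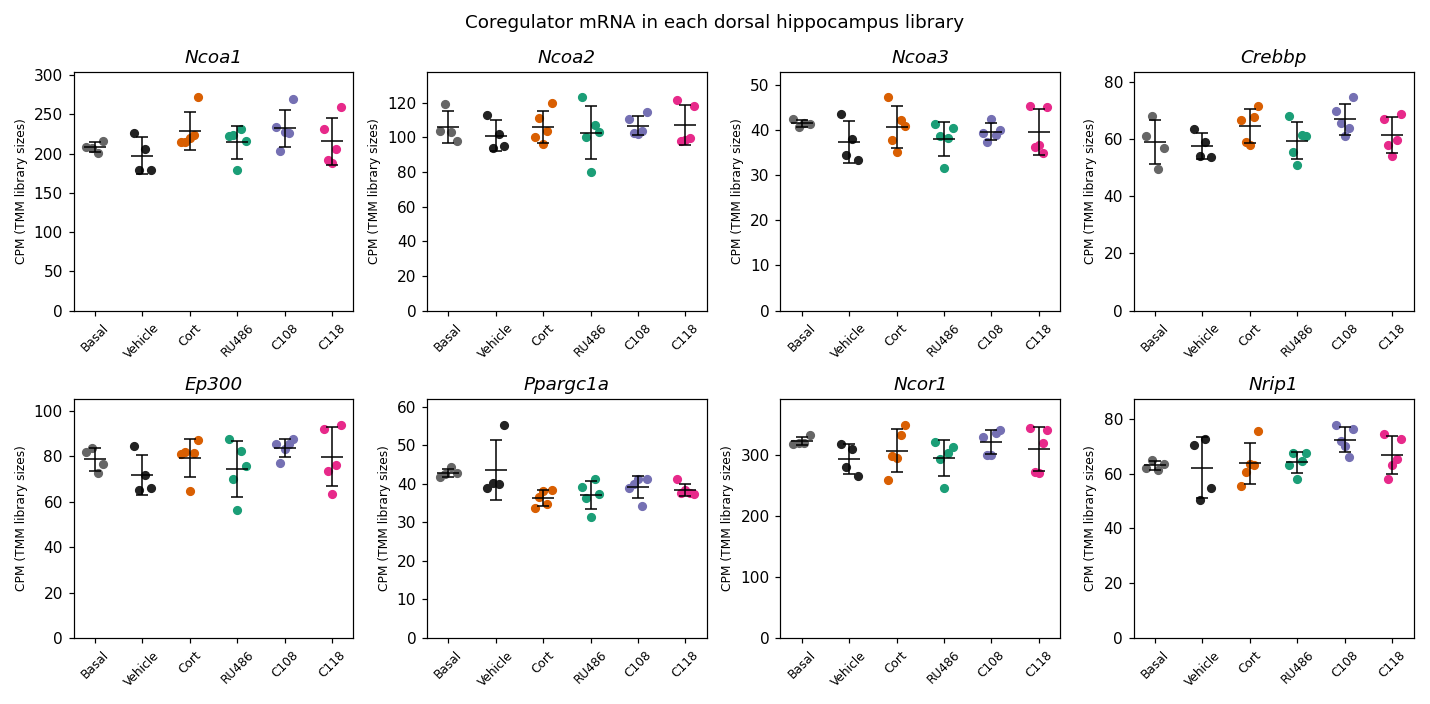
CPM of each coregulator gene (y axis, from 0) in every library (points) of the 6 groups (x axis), with the group mean and SD as bars. Groups overlap for most genes, Ppargc1a stands at 55.3 CPM in Vehicle 29, and the Basal libraries lie close together for Ncoa1, Ncoa3, Ncor1, Nrip1 and Ppargc1a.

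Of the p160 coactivators, Ncoa1 (SRC-1; ENSMUSG00000020647, chr12:4247362-4477182) was measured at 208.7, 206.9, 201.2 and 215.9 CPM in Basal and at 226.8, 178.9, 205.9 and 178.5 CPM in Vehicle. It was at 214.8, 214.3, 219.5, 223.7 and 271.5 CPM in Cort and at 223.0, 223.7, 178.7, 231.2 and 215.5 CPM in RU486. It was at 233.4, 203.0, 227.7, 226.4 and 269.4 CPM in C108 and at 231.8, 191.7, 188.1, 206.2 and 259.6 CPM in C118. Cort 36, C108 39 and C118 38 were thus the highest libraries of all, the Vehicle libraries numbered 16 and 29 were low, and every pair of groups overlapped. Group means were 208 ± 6.08 CPM in Basal (SD, n = 4) and 198 ± 23.4 in Vehicle (SD, n = 4), and 229 ± 24.2 in Cort, 214 ± 20.7 in RU486, 232 ± 23.9 in C108 and 215 ± 30.05 CPM in C118 (SD, n = 5 each). The log2 fold change against Vehicle was 0.21 ± 0.10 (SE) in Cort, with an adjusted p of 0.407, and 0.23 ± 0.10 in C108, with an adjusted p of 0.229. Without Vehicle 16 and 29 these values were 0.08 and 0.10.

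Ncoa2 (SRC-2, also called GRIP1, a p160 partner through which the glucocorticoid receptor can also repress; ENSMUSG00000005886, chr1:13139105-13374083) had the highest adjusted p in the test over all groups. Its means were 106 ± 9.14 CPM in Basal and 101 ± 8.85 in Vehicle (SD, n = 4 each), and 106 ± 9.29 in Cort, 103 ± 15.3 in RU486, 107 ± 5.52 in C108 and 107 ± 11.6 CPM in C118 (SD, n = 5 each). Single libraries ran from 80.2 CPM in RU486 19 to 122.9 CPM in RU486 6, so that the widest spread lay within a group. Ncoa3 (SRC-3; ENSMUSG00000027678, chr2:165992636-166073242) was at 42.3, 40.7, 41.5 and 41.2 CPM in Basal and at 43.5, 34.6, 37.9 and 33.4 CPM in Vehicle. The Basal libraries lay within a narrow band, and 3 of the 4 Vehicle libraries lay below it. The log2 fold change of Ncoa3 was -0.15 ± 0.10 (SE) in Vehicle against Basal, with an adjusted p of 0.462. It was -0.10 without Vehicle 29, -0.02 without Vehicle 16 and 29, and -0.23 with thalamus and neocortex scores as covariates (adjusted p = 0.207). Its means in the ligand groups were 40.6 ± 4.59 CPM in Cort, 38.03 ± 3.79 in RU486, 39.7 ± 1.88 in C108 and 39.6 ± 5.13 in C118 (SD, n = 5 each), between the Vehicle mean of 37.3 ± 4.55 and the Basal mean of 41.4 ± 0.674 CPM.

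The acetyltransferase genes, which serve as shared cofactors of nuclear receptors, CREB and many other factors, had higher means in C108 than in Vehicle without passing the test. Crebbp (CBP; ENSMUSG00000022521, chr16:4081328-4213997) was at 63.6, 54.0, 58.8 and 53.7 CPM in Vehicle and at 69.6, 65.4, 60.8, 63.7 and 74.4 CPM in C108. The 2 groups overlapped, since 1 Vehicle library exceeded the lowest C108 library. This difference was 0.22 ± 0.09 (log2, SE), with an adjusted p of 0.240. In Basal, Crebbp ranged from 49.5 to 67.9 CPM (58.8 ± 7.70, SD, n = 4), the widest relative spread of the 8 genes in that group. Ep300 (p300; ENSMUSG00000055024, chr15:81585351-81652077) was at 84.5, 65.3, 71.8 and 66.1 CPM in Vehicle and at 85.3, 77.2, 83.2, 85.7 and 87.7 CPM in C108. Its log2 fold change in C108 against Vehicle was 0.22 ± 0.11 (SE), with an adjusted p of 0.307. Without Vehicle 16 and 29 the C108 differences were 0.13 for Crebbp and 0.10 for Ep300. In RU486, Ep300 spread from 56.3 CPM in RU486 19 to 87.7 CPM in RU486 6, and in C118 from 63.4 to 94.0 CPM, a range that holds every library except RU486 19.

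Ppargc1a (ENSMUSG00000029167, chr5:51454250-51567726) encodes PGC-1alpha, a coactivator of nuclear receptors and of nuclear respiratory factors that is known for driving mitochondrial genes and, in brain, for its enrichment in parvalbumin interneurons. It was the only coregulator of the 8 whose fitted value lay below Vehicle in every ligand group. Its levels were 41.8, 42.6, 44.2 and 42.9 CPM in Basal and 38.9, 40.1, 40.0 and 55.3 CPM in Vehicle. In the ligand groups they were 33.7, 36.5, 38.1, 34.8 and 38.3 CPM in Cort and 39.2, 36.3, 31.4, 41.3 and 37.3 CPM in RU486. They were 38.9, 40.0, 41.2, 34.3 and 41.3 CPM in C108 and 41.1, 37.6, 38.3, 37.6 and 37.3 CPM in C118. Each of the 4 ligand groups lay wholly below Basal, and Vehicle did so in 3 of its 4 libraries, with Vehicle 29 far above every other library of the study. Of 24 conditioned libraries, 23 lay below the lowest Basal library, a count reached by 1.75% of all tested genes, beside 1.42% with as many above the highest Basal library. Ppargc1a had 777 to 889 counts in the Basal libraries, whose spread of 2.38% lay under the 3.45% that counting alone gives.

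Means of Ppargc1a were 42.9 ± 1.02 CPM in Basal and 43.6 ± 7.84 in Vehicle (SD, n = 4 each), and 36.3 ± 2.03 in Cort, 37.1 ± 3.71 in RU486, 39.1 ± 2.85 in C108 and 38.4 ± 1.58 CPM in C118 (SD, n = 5 each). The log2 fold change in Cort was -0.24 ± 0.09 (SE) against Basal, with an adjusted p of 0.101. In RU486 against Basal it was -0.21 (adjusted p = 0.155), in C118 -0.16 (adjusted p = 0.330) and in C108 -0.13 (adjusted p = 0.383). None passed the threshold in the reported fit, whereas the Cort value passed it under 2 of 20 alternatives. Groups that lay wholly below Basal were common across the table: 5.35% of all genes did so in Cort, 6.07% in RU486, 4.94% in C108 and 4.96% in C118. These comparisons share the 4 Basal libraries, and so are not independent of each other.

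Against Vehicle, the Ppargc1a value was -0.26 ± 0.09 (SE) in Cort (adjusted p = 0.237), -0.23 in RU486 (adjusted p = 0.418), -0.18 in C118 (adjusted p = 0.607) and -0.16 in C108 (adjusted p = 0.347). All Cort libraries lay below all Vehicle libraries, which 1.35% of genes did. Without Vehicle 29, the values were -0.13 in Cort (adjusted p = 0.802), -0.10 in RU486, -0.05 in C118 and -0.02 in C108, and Vehicle against Basal moved from 0.02 to -0.11 (adjusted p = 0.576). A single library thus carried the larger part of the difference from Vehicle. The Cort and Basal means do not include it, but their test uses a spread estimated over all 28 libraries. Without Vehicle 16 and 29, Ppargc1a in Cort against Basal passed the threshold, as given in the closing section.

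Of the marker lists of cells and regions, that of neocortex moved most with Ppargc1a. Pearson r with the scores of astrocyte (0.00), microglia (-0.08), choroid plexus (0.02) and oligodendrocyte (0.11) was small. The 12 neocortex markers, all tested and none at 0, had summed levels from 313 to 374 CPM in the Basal libraries, from 236 to 372 in the Vehicle libraries, from 229 to 273 under Cort, from 230 to 264 under RU486, from 242 to 308 under C108 and from 234 to 286 CPM under C118. Against Basal, 1 of the 12 fell in Vehicle, 3 in Cort, 3 in RU486, 2 in C108 and 3 in C118, and none rose. The shares of all genes called in these groups, in either direction, were 4.11%, 6.27%, 5.45%, 6.04% and 3.87%. Over 28 libraries, log2 CPM of Ppargc1a and the neocortex score (mean centred log2 CPM of the markers) had Pearson r = 0.59 and Spearman rho = 0.59, 0.53 without the 2 libraries farthest from the median score, and 0.34 within groups. Vehicle 29, with the highest Ppargc1a level, had a neocortex score of 0.50, and Vehicle 16, with the highest score of 0.69, had a Ppargc1a level of 40.1 CPM. With thalamus and neocortex scores as covariates, the log2 fold change of Ppargc1a in Cort was -0.09 against Basal (adjusted p = 0.691) and -0.19 against Vehicle (adjusted p = 0.791). Over the same libraries Ppargc1a had r = 0.39 with the score of the 12 inhibitory neuron markers, all tested and none at 0, whose sums ran from 1267 to 1343 CPM in Basal and from 1127 to 1661 CPM over all groups. With the dentate gyrus score r was -0.41, and 0.04 without the 2 farthest libraries. Neocortex scores ran from 0.25 to 0.42 in Basal and reached at most 0.17 in a ligand group, so they did not overlap. For ligand groups against Basal, a fit with these scores thus cannot tell tissue content from group, for any gene. The part of adjacent tissue in the Ppargc1a difference was not tested.

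**Figure D2:**
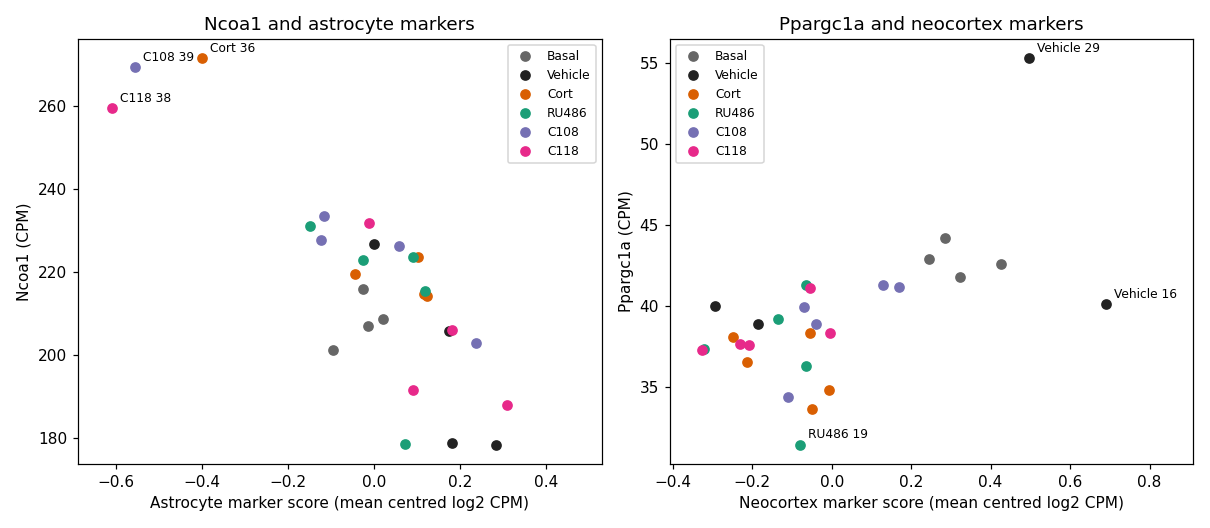
Left, Ncoa1 level (CPM) against the astrocyte marker score; right, Ppargc1a level (CPM) against the neocortex marker score, with each library a point coloured by group. Ncoa1 is highest in Cort 36, C108 39 and C118 38, which have the lowest astrocyte scores, and Ppargc1a stands apart at 55.3 CPM in Vehicle 29.

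Of the corepressors, Ncor1 (ENSMUSG00000018501, chr11:62316426-62458541), the scaffold of an HDAC3-containing repressor complex, was at 318.1, 319.3, 318.2 and 332.3 CPM in Basal and at 317.1, 280.4, 308.5 and 265.4 CPM in Vehicle. All Vehicle libraries lay below all Basal libraries, as they did for 5.76% of genes, although Vehicle 3 came close to the lowest Basal library. On the log2 scale the difference was -0.14 ± 0.09 (SE), with an adjusted p of 0.488, and -0.04 without Vehicle 16 and 29. In the ligand groups Ncor1 had means of 306 ± 35.4 CPM in Cort, 295 ± 29.8 in RU486, 321 ± 19.6 in C108 and 309 ± 35.6 in C118 (SD, n = 5 each). No ligand group was set apart from Basal for Ncor1, and RU486, whose receptor complex can recruit NCoR1, had a mean close to that of Vehicle (293 ± 24.1 CPM, SD, n = 4).

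Nrip1 (RIP140; ENSMUSG00000048490, chr16:76287400-76373827), a ligand-dependent repressor of metabolic genes, was at 62.1, 65.1, 61.3 and 63.5 CPM in Basal and at 77.8, 71.8, 70.0, 66.2 and 76.2 CPM in C108. Every C108 library lay above every Basal library, which 4.41% of genes did. The log2 fold change was 0.20 ± 0.10 (SE), with an adjusted p of 0.218, and it was 0.06 with thalamus and neocortex scores as covariates. Vehicle libraries were split, at 70.5 and 72.7 CPM in Vehicle 3 and 23 and at 50.5 and 54.9 CPM in Vehicle 16 and 29. C108 against Vehicle gave a log2 fold change of 0.22 ± 0.10 (SE), with an adjusted p of 0.238, and of 0.02 without Vehicle 16 and 29. The other ligand groups had means of 63.7 ± 7.41 CPM in Cort, 64.1 ± 3.89 in RU486 and 66.7 ± 6.88 in C118 (SD, n = 5 each).

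Taking the 8 genes by comparison, Vehicle had a lower mean than Basal for 7 of 8, and none was called in a comparison where 4.11% of genes were. None of the 8 had an unadjusted p under 0.05 there, beside 18.1% of all genes. The median log2 fold change of the 8 was -0.07, beside 0.00 over all genes. Without Vehicle 16 and 29, 4 of 8 were lower and 4 higher, with a median of 0.01. Each ligand group had a higher fitted value than Vehicle for 7 of 8 and a lower one for Ppargc1a, and the 4 comparisons share the 4 Vehicle libraries. These signs rest on Vehicle 16 and 29. Without both, which left only Vehicle 3 and 23 in that group, 10 of the 32 values against Vehicle were above 0 and 22 below. Of the 8 genes, 3 were then higher in Cort, 0 in RU486, 5 in C108 and 2 in C118. Leaving out Vehicle 3 instead gave Crebbp in C108 its lowest adjusted p of the alternatives (0.178). Leaving out Vehicle 23 did so for Nrip1 in C108 (0.0786). Without Vehicle 29 alone, 23 of 32 were above 0 and RU486 was higher for 3 of 8, and with thalamus and neocortex scores as covariates 23 of 32 were above 0. The medians against Vehicle were 0.10 in Cort, 0.04 in RU486, 0.17 in C108 and 0.09 in C118, beside all-gene medians between -0.00 and 0.01. No member was called against Vehicle, where the share of all genes called was 0.00598% for Cort, 0% for RU486, 0.215% for C108 and 0% for C118. At an unadjusted p under 0.05, 3 of 8 passed in C108 against Vehicle (Ncoa1, Nrip1 and Crebbp), beside 17.4% of all genes. Under that rule 2 passed in Cort against Vehicle (Ncoa1 and Ppargc1a), beside 11.6%, and Ppargc1a alone passed in RU486 (8.16%) and C118 (8.01%). Over the 32 values the 95% intervals of the change against Vehicle reached from -26.5% (Ppargc1a in Cort) to 36.7% (Ep300 in C108), so changes beyond those sizes lay outside every interval.

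Against Basal, no member was called in Cort, RU486, C108 or C118, while 6.27%, 5.45%, 6.04% and 3.87% of all genes were. At an unadjusted p under 0.05, Ppargc1a passed in Cort (19.5% of all genes) and RU486 (22%), Nrip1 in C108 (21.8%) and none in C118 (18.9%). The median log2 fold changes of the 8 were 0.00 in Cort, -0.06 in RU486, 0.05 in C108 and 0.02 in C118. Adjusted p over the 40 values against Basal, those of Vehicle included, ranged from 0.101 to 0.996. The intervals reached from -25.2% (Ppargc1a in Cort) to 31.6% (Nrip1 in C108).

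**Figure D3:**
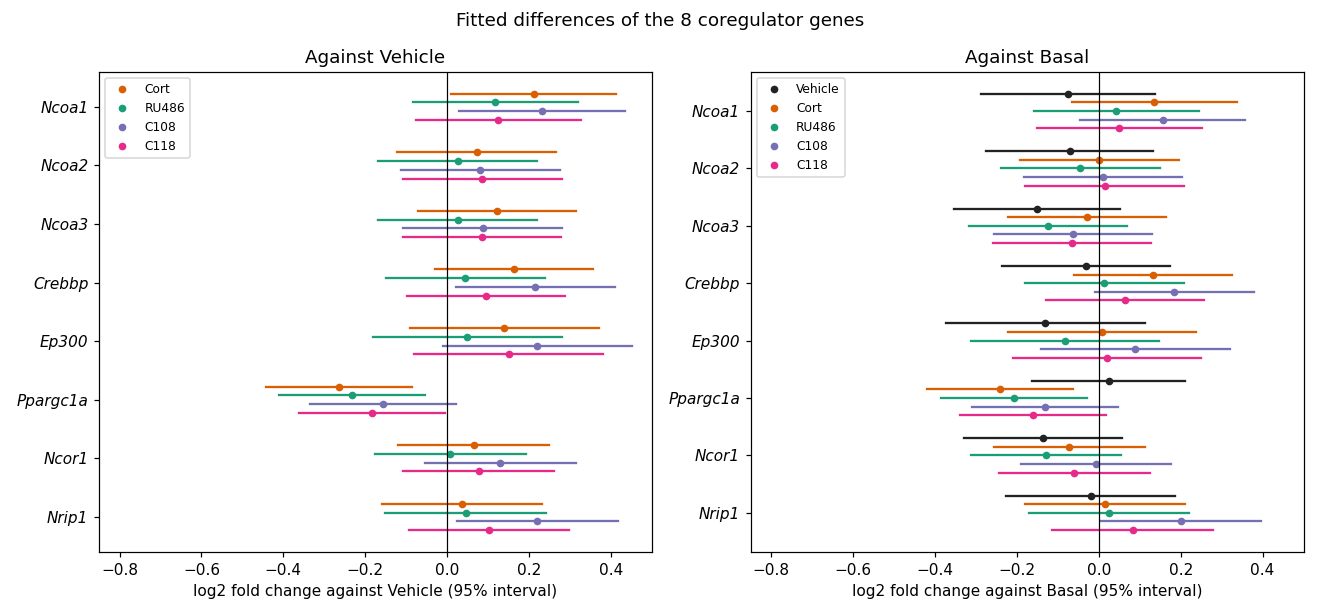
Log2 fold change of each coregulator gene (rows) in each group against Vehicle (left) and against Basal (right), with 95% intervals as lines and 0 as the vertical line. Against Vehicle 28 of 32 values are above 0 and the 4 values of Ppargc1a are below it, from -0.26 to -0.16, whereas 10 of 32 are above 0 without Vehicle 16 and 29.

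The ligands were compared directly in 6 pairs, which gave 48 values for the 8 genes. None was called, and adjusted p ranged from 0.841 to 0.9999. Across all genes, 0.0538% were called between Cort and RU486 and 0% in the other 5 pairs. The values ran from -0.18 (Nrip1 in Cort against C108) to 0.12, and only that Nrip1 value had an unadjusted p under 0.05, beside 4.88% of genes in that pair. In the other pairs 5.34% (Cort and RU486), 4.26% (Cort and C118), 5.74% (RU486 and C108), 1.83% (RU486 and C118) and 2.4% (C108 and C118) of all genes did so. RU486 had a lower fitted value than C108 and than C118 for 8 of 8 genes, with medians of -0.12 and -0.06. RU486 19 was the lowest library of its group for all 8 genes, most of which varied together across libraries. Under alternatives some of these values were above 0, up to 0.07 against C118 (Ncoa1) and 0.02 against C108 (Ncoa2). C108 was higher than C118 for 7 of 8, with a median of 0.06, and Cort was higher than RU486 for 6 of 8, with a median of 0.07. The 95% intervals between ligands reached from -23.6% (Ep300, RU486 against C108) to 23.8% (Ep300, Cort against RU486). The coded pair C108 and C118 did not differ detectably in any of the 8 genes. Its own 95% intervals reached from -12.2% (Ncoa2) to 23.4% (Crebbp), and differences inside the interval of each gene could not be resolved.

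The 8 genes also differed in how much they varied among libraries of a group. In Basal, 5 of 8 (Ncoa1, Ncoa3, Ncor1, Nrip1 and Ppargc1a) had a coefficient of variation under 3%, from 1.63% for Ncoa3 to 2.92% for Ncoa1. In each of the other 5 groups the count was 0. Among 4849 genes with levels in the same range, 8.85% were under 3% in Basal, and 4.62% in Vehicle, 2.41% in Cort, 3.94% in RU486, 1.86% in C108 and 3.07% in C118 were. The median coefficient of the 8 genes was 2.78% in Basal, 12.01% in Vehicle, 10.6% in Cort, 10.05% in RU486, 6.30% in C108 and 11.2% in C118. Counting alone would give Basal coefficients of 3.51% for Ncoa3, 3.45% for Ppargc1a and 2.85% for Nrip1, above the measured 1.63%, 2.38% and 2.63%. The Basal libraries thus lay closer together for these 3 genes than counting error allows on average, which occurred for none of the 8 in the other groups. The limit of 3% was not among the planned measures, and each coefficient rests on 4 or 5 libraries. As 7 of the genes varied together across libraries, their coefficients are not independent of each other. The difference in spread was not tested.

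The genes other than Ppargc1a varied together across libraries. The 21 pairs among the other 7 had Pearson r between 0.40 and 0.88 over 28 libraries (median 0.72), and between 0.46 and 0.89 after group means were removed. The 7 pairs with Ppargc1a had r between -0.14 and 0.16. The closest pair was Ncoa2 and Ep300 (r = 0.88, rho = 0.90, and 0.83 without the 2 farthest libraries), and the paralogues Crebbp and Ep300 followed (r = 0.83, rho = 0.87, and 0.88 without the 2 farthest). Correlations here are descriptions over libraries that share depth scaling and tissue makeup.

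Several libraries were high or low for most of the genes. RU486 19 was the lowest of its group for 8 of 8 genes, Cort 36 the highest of its group for 7, C108 39 the highest for 6 and Vehicle 3 the highest for 6. Vehicle 29 was the lowest of its group for 4 genes and the highest for Ppargc1a. A library that was high or low for 1 of the 7 genes was often so for the others, which the heat map shows as columns of like colour.

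**Figure D4:**
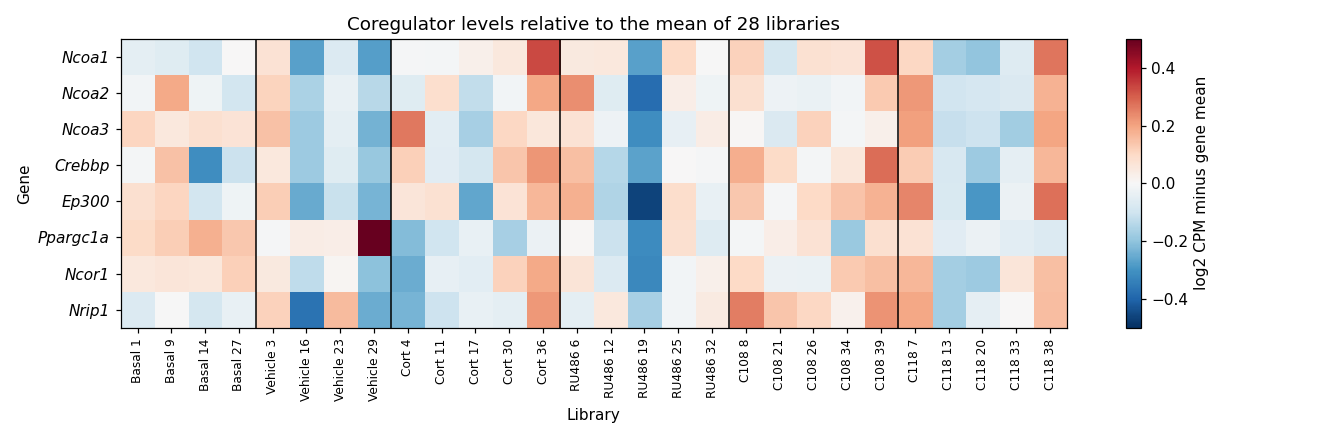
Log2 CPM of each coregulator gene (rows) in each library (columns, with group borders as black lines) minus the mean of that gene over 28 libraries, on a colour scale from -0.5 to 0.5. Cort 36, C108 39 and C118 38 are mostly red and RU486 19, Vehicle 16 and Vehicle 29 mostly blue, with Ppargc1a in Vehicle 29 the darkest red cell.

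Astrocyte and microglia marker levels moved opposite to these 7 genes, whereas r with the oligodendrocyte score lay between -0.40 and 0.19. Over 28 libraries their r with the astrocyte score lay between -0.82 and -0.43 and with the microglia score between -0.79 and -0.44, while r with the dentate gyrus score lay between 0.40 and 0.70. For Ncoa1 and the astrocyte score r was -0.82 (rho = -0.75, -0.75 without the 2 farthest libraries and -0.82 within groups). The 10 astrocyte markers, all tested and none at 0, had summed levels from 2081 to 2370 CPM in the Basal libraries, from 2244 to 2869 in the Vehicle libraries, from 1716 to 2468 under Cort, from 1990 to 2441 under RU486, from 1528 to 2636 under C108 and from 1455 to 2841 CPM under C118. The 10 microglia markers, none at 0, had summed levels from 395 to 436 CPM in the Basal libraries, from 410 to 445 in the Vehicle libraries, from 319 to 424 under Cort, from 381 to 482 under RU486, from 331 to 472 under C108 and from 318 to 529 CPM under C118. The part of glial content in the levels of the 7 genes was not tested. With astrocyte and microglia scores as covariates, a setting chosen after seeing the data, the log2 fold change of Ncoa1 against Vehicle was 0.12 in Cort and 0.14 in C108, smaller than in the fit without them. In that setting the C108 value against Vehicle was larger for Ep300 (0.31) and Crebbp (0.26), and the Ep300 value in Vehicle against Basal was -0.28, beside -0.13 without the scores. None of these was called. Exonic length is a further shared property: the 8 genes have 6.59 to 15.6 kb of exonic sequence against a median of 4.11 kb, and r with the mean level of 1665 long genes ran from 0.08 for Nrip1 to 0.62 for Ncoa2.

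The genes whose level followed each coregulator most closely were taken as the 3 with the highest Pearson r over 28 libraries among 14220 genes. For Ncor1 they were Ppp1r9a (0.94), Kcnj6 (0.93) and Ash1l (0.93), and for Ncoa1 Atf7ip (0.93), Synrg (0.92) and Cyfip2 (0.91). For Ep300 they were Arid1a (0.90), Spen (0.89) and Bptf (0.89), and for Nrip1 Gnaq (0.88), Dlgap1 (0.87) and Arel1 (0.85). Ncoa2 was followed most closely by Helz (0.87), Cbl (0.87) and Tnrc6b (0.86), and Ncoa3 by Spen (0.82), Bicral (0.79) and Nfasc (0.79). Spen, a large corepressor scaffold, was named for both Ep300 and Ncoa3. Ppargc1a was followed by Rab3c (0.86), Tenm4 (0.85) and Ptprt (0.83), and these values fell to 0.68, 0.60 and 0.63 without the 2 libraries farthest from the median.

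Of 20 tested genes among 22 further corepressors, Hdac7, a class IIa histone deacetylase, fell in every conditioned group. Its level was 16.9 ± 1.46 CPM in Basal and 11.4 ± 1.54 in Vehicle (SD, n = 4 each), and 11.3 ± 1.28 in Cort, 10.8 ± 1.10 in RU486, 10.3 ± 2.15 in C108 and 9.83 ± 1.75 in C118 (SD, n = 5 each). The highest library of the other groups, 13.2 CPM in C108, lay below the lowest Basal library at 15.7 CPM. For 1.75% of all tested genes, at least 23 of the 24 conditioned libraries lay below the lowest Basal library. Hdac7 is named here for its small p in comparisons that use these same Basal libraries. The log2 fold changes were -0.56 in Vehicle (adjusted p = 0.0202), -0.57 in Cort, -0.64 in RU486, -0.71 in C108 and -0.78 in C118 (adjusted p = 0.000976). The 4 ligand values kept their call under each of the 20 alternatives, and the Vehicle call was lost without Basal 1, Vehicle 23 or Vehicle 29 (adjusted p 0.0633 to 0.0816). That Vehicle call was also lost with astrocyte and microglia scores as covariates and without Vehicle 16 and 29. Over all 19 alternatives it was lost in 5, with adjusted p up to 0.0875. Against Vehicle, Hdac7 was not called in any ligand group, with adjusted p of 0.577 to 0.983.

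Ctbp2, a corepressor of the C-terminal binding protein family, fell against Basal in the 4 ligand groups, by log2 fold changes of -0.41 in Cort, -0.40 in RU486, -0.42 in C108 and -0.43 in C118. Its level was 21.9 ± 1.13 CPM in Basal (SD, n = 4) and between 16.2 and 16.6 CPM in the means of the ligand groups. In Vehicle the mean was 17.6 ± 2.45 CPM (SD, n = 4). The value of -0.31 (log2) in Vehicle against Basal missed the threshold (adjusted p = 0.0580). With thalamus and neocortex scores as covariates, all 4 calls were lost (adjusted p of 0.0595 to 0.172). Coro2a, a member of the NCoR complex, rose in Vehicle against Basal (0.52, adjusted p = 0.0283), from 17.1 ± 2.07 to 24.5 ± 6.23 CPM (SD, n = 4 each). That call was lost without Basal 1, Basal 14, Vehicle 16 or Vehicle 29 (adjusted p 0.0801 to 0.150), and over 7 of 19 alternatives in all, with values down to 0.21 and adjusted p up to 0.615. Hdac4 rose in C108 against Basal (0.24, adjusted p = 0.0331), a call lost without any of 6 single libraries, Basal 1, 14 and 27 and C108 21, 34 and 39 (adjusted p 0.0608 to 0.116). The Hdac4 call was also lost with thalamus and neocortex scores as covariates, and its adjusted p reached 0.185 over all alternatives. In all, 2 of the 20 were called in Vehicle, 2 in Cort, 2 in RU486, 3 in C108 and 2 in C118, beside 4.11%, 6.27%, 5.45%, 6.04% and 3.87% of all genes. Median log2 fold changes of the 20 corepressors against Basal were between -0.06 and -0.01.

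Of 30 further coactivators, all tested, 2 fell in Cort, 2 in RU486 and 1 in C108 against Basal, and none was called in Vehicle or C118. The shares of all genes called were 6.27% in Cort, 5.45% in RU486 and 6.04% in C108, so these counts were near the background. Median log2 fold changes of the 30 were -0.14 in Vehicle, -0.02 in Cort, -0.08 in RU486, -0.00 in C108 and -0.05 in C118. Tgfb1i1 (Hic-5), a coactivator of steroid receptors and a focal adhesion protein, fell in Cort (-0.74, adjusted p = 0.00502), C108 (-0.80, adjusted p = 0.00463) and RU486 (-0.57, adjusted p = 0.0418). Its level was 4.72 ± 0.901 CPM in Basal (SD, n = 4), and 2.82 ± 0.408 in Cort and 2.70 ± 0.337 CPM in C108 (SD, n = 5 each). With thalamus and neocortex scores as covariates the C108 call was lost (adjusted p = 0.0640), as was the RU486 call. The RU486 call was also lost without any of 8 single libraries, Basal 1, 14 and 27 and each of the 5 RU486 libraries (adjusted p 0.0504 to 0.198). Zmiz1, a PIAS-like coactivator, fell in Cort (-0.31, adjusted p = 0.0367) and RU486 (-0.30, adjusted p = 0.0433). The Cort call was lost without Basal 1, 9 or 14 or Cort 4, 17 or 30 (adjusted p 0.0755 to 0.129). The RU486 call was lost without Basal 1, 9 or 14 or RU486 12, 19, 25 or 32 (adjusted p 0.0636 to 0.139). With thalamus and neocortex scores as covariates each Zmiz1 call was lost as well.

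Some endothelial markers also fell against Basal, and Hdac7 and Tgfb1i1 are both expressed in vessels. How these genes and the markers vary together across libraries was not measured. The 10 endothelial markers, all tested and none at 0, had summed levels from 114 to 165 CPM in the Basal libraries, from 81.8 to 121 in the Vehicle libraries, from 58.2 to 133 under Cort, from 73.7 to 129 under RU486, from 41.2 to 119 under C108 and from 41.6 to 113 CPM under C118. Against Basal, 1 of 10 fell in Vehicle, 3 in Cort, 2 in RU486, 5 in C108 and 3 in C118, and none rose. The shares of all genes called there, in either direction, were 4.11%, 6.27%, 5.45%, 6.04% and 3.87%. The part of vessel content in the Hdac7 and Tgfb1i1 differences was not tested.

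Among 21 partners and targets of PGC-1alpha, all tested, none fell against Basal and none was called against Vehicle. Pdk4, a pyruvate dehydrogenase kinase induced through PGC-1alpha and by glucocorticoids, rose in Vehicle (0.92, adjusted p = 0.00469) and Cort (0.76, adjusted p = 0.00993). Its level was 9.11 ± 1.27 CPM in Basal and 17.3 ± 4.43 in Vehicle (SD, n = 4 each), and 15.5 ± 3.43 in Cort, 10.5 ± 1.16 in RU486, 11.6 ± 3.31 in C108 and 11.2 ± 2.13 CPM in C118 (SD, n = 5 each). With astrocyte and microglia scores as covariates both Pdk4 calls were lost, at 0.34 in Vehicle (adjusted p = 0.262) and 0.35 in Cort (adjusted p = 0.132), and without Vehicle 16 and 29 the Vehicle value was 0.70 (adjusted p = 0.0927). Nrf1, a nuclear respiratory factor that PGC-1alpha coactivates, rose in Cort (0.39, adjusted p = 0.0130) and C108 (0.37, adjusted p = 0.0242). The Nrf1 call was lost without Basal 1 or 14 in Cort (adjusted p 0.0579 to 0.0649), and without Basal 1, 14 or 27 or C108 26 or 39 in C108 (adjusted p 0.0545 to 0.105). With thalamus and neocortex scores as covariates each Nrf1 call was lost as well. Tfb2m, a mitochondrial transcription factor, rose in RU486 (0.38, adjusted p = 0.0141), a call lost without Basal 14 or 27 or RU486 19 (adjusted p 0.0542 to 0.0628). Medians of the list against Basal were 0.14 in Vehicle, 0.08 in Cort, 0.11 in RU486, 0.07 in C108 and 0.07 in C118, beside all-gene medians of 0.00 to 0.01. None of 14 partners of CBP and p300 was called against Basal, with medians between -0.05 and -0.01.

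The receptors these coregulators serve gave 3 or 4 calls per group against Basal among 30 tested of 32, where 4.11% of all genes were called in Vehicle, 6.27% in Cort, 5.45% in RU486, 6.04% in C108 and 3.87% in C118. Nr3c1, the glucocorticoid receptor, fell against Basal in Vehicle (-0.51), Cort (-0.61), RU486 (-0.41), C108 (-0.46) and C118 (-0.45), and kept each of these calls under the alternatives tried. In Vehicle, Nr3c2, the mineralocorticoid receptor, also fell (-0.50, adjusted p = 0.0379) and Nr1d2 (0.39) and Rora (0.95) rose, calls that were lost without single libraries. For Nr3c2 these were each of the 4 Basal libraries and Vehicle 16 and 29 (adjusted p 0.0628 to 0.152), and over 10 of 19 alternatives in all its value reached -0.18 and its adjusted p 0.611. For Nr1d2 they were Basal 1 and 14 and Vehicle 29 (adjusted p 0.0599 to 0.0690), and for Rora, also a thalamus marker, Basal 1, 14 and 27 and Vehicle 16 (adjusted p 0.0551 to 0.110). Over all 19 alternatives the values reached 0.22 for Nr1d2 (adjusted p up to 0.288) and 0.54 for Rora (adjusted p up to 0.278). Nr1d2 and Nr1d1, the REV-ERB repressors of the clock, also rose under ligands. Nr1d2 rose in RU486 (0.52) and C118 (0.49), calls kept under all 20 alternatives, and in C108 (0.29), a call lost without Basal 1, 14 or 27 or C108 8, 21, 26 or 39 (adjusted p 0.0544 to 0.170). The C108 call of Nr1d2 was also lost with thalamus and neocortex scores as covariates. Nr1d1 rose in RU486 (0.56), C108 (0.51) and C118 (0.61), and each call was lost with thalamus and neocortex scores as covariates (adjusted p 0.0893 to 0.146). Rarg, a retinoic acid receptor, fell in Cort (-0.63), RU486 (-0.64) and C108 (-0.69). Its calls were lost without Basal 1, 14 or 27 in each of these groups, and also without Cort 11, 30 or 36, RU486 12, 19 or 32 or C108 39 (adjusted p 0.0516 to 0.0899). All Rarg calls were lost as well with thalamus and neocortex scores as covariates (adjusted p 0.113 to 0.143). Nr2f1, an orphan receptor, fell in Cort (-0.40), a call lost without Basal 14 or Cort 36 (adjusted p 0.0539 to 0.104). It was also lost with thalamus and neocortex scores as covariates (adjusted p = 0.269). Against Vehicle a single receptor was called: Rora was lower in C108 by a log2 fold change of -1.12 (adjusted p = 0.0384), a call lost without Vehicle 16 or 29 or C108 8, 26, 34 or 39 (adjusted p 0.0552 to 0.284). Over 14 of 20 alternatives in all that call was lost, with values up to -0.43 and adjusted p up to 0.932.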

How the data were processed

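RNA of dissected, snap-frozen hippocampus was made into stranded paired-end libraries, per the labels' protocols. The deposited values are whole-number counts that the authors obtained per Ensembl gene, with HTSeq 0.6.1, FastQC, MultiQC and mm10 named, per the submitters' processing notes. The sources used here do not name the aligner, the annotation release or the strand setting of the counting. Exons of other genes overlap those of Ncoa1 (4921501I09Rik), Ncoa3 (Sulf2) and Ncor1 (Pigl and Ttc19) on the opposite strand and of Ep300 (Gm23880) on the same strand, so their counts are uncertain by whatever those overlaps add. 5 summary rows that name no gene, with 12.6% to 19.7% of all counts, were left out. 0 columns lacked a sample. Differences within each group exceeded sampling noise, so no duplicates were found (lowest chi-square per degree of freedom 5.94).

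Coordinates are from GENCODE M21 on GRCm38. edgeR 4.0.16 in R 4.3.3 was run on all 28 libraries: filterByExpr (minimum count 10, total 15), TMM, a robust quasi-likelihood fit with 22 residual degrees of freedom, two-sided tests and Benjamini-Hochberg adjustment over all tested genes at a threshold of 0.05. CPM were computed from the counts, with a prior count of 2 for log2 values. Standard errors follow from the log2 fold change and the F statistic, and intervals are at 95%. The fit was tested on simulated data. Alternatives were DESeq2 1.42.0, limma-voom (limma 3.58.1), RLE factors, other filters, fits to the 2 groups compared, marker scores or sample number as covariates, and leaving out libraries. Named genes were the 8, up to 4 called genes with the smallest p per list and comparison, and the 3 closest genes to each of the 8, of which those of Crebbp are not reported here. The 8 genes, lists and tests were chosen with earlier results of these data known. Protein sequences were not analysed here.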

Additional observations from a re-analysis of the deposited data

Results flagged for a closer look

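In 5 of 48 combinations of a gene and a group, a library stood apart from the rest of its group by a gap larger than the 95% critical value of Dixon's test, which chance alone exceeds in about 1 in 20 groups. Ppargc1a was at 55.3 CPM in Vehicle 29, against 40.1 CPM in the next library, and the same library had the lowest dentate gyrus marker sum of the study (537 CPM). Ncoa1 was at 271 CPM in Cort 36, against 224 CPM in the next. Ep300 was at 64.8 CPM in Cort 17, with the nearest other library at 80.9 CPM. Ncor1 was at 332 CPM in Basal 27, against 319 CPM, and Ppargc1a was at 41.1 CPM in C118 7, against 38.3 CPM. Leaving out Vehicle 29 changed the Ppargc1a values as given above. Each library in turn was left out only for comparisons of its own group and for the test over all groups. None of the 8 genes was called in those. Comparisons between other groups were not examined in that way.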

How the results depend on the processing

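No paired analysis was possible because every title carries a different sample number, and no 2 groups have one in common. Of 2744 values of the 8 genes under alternative settings, 2742 stayed uncalled as in the reported fit, 194 of them with the opposite sign, and 2 became called. Both were Ppargc1a in Cort against Basal: the count of called genes was 1 with astrocyte and microglia scores as covariates (-0.37, adjusted p = 0.0253), a setting chosen after seeing the data, and 1 without Vehicle 16 and 29 (-0.24, adjusted p = 0.0360). Over 20 alternatives this value ranged from -0.37 to -0.09, with adjusted p from 0.0253 to 0.691. Counts over all genes moved by more than 1.5 times. Vehicle against Basal gave 688 calls, 346 to 940 with 1 library left out and 355 to 1070 under the other settings. Against Basal, Cort gave 1049 (538 to 1328), RU486 912 (275 to 1718), C108 1010 (251 to 1496) and C118 648 (132 to 1217). Against Vehicle, Cort gave 1 (0 to 170), RU486 0 (0 to 207), C108 36 (0 to 656) and C118 0 (0 to 214). Cort against RU486 gave 9 (0 to 29), the other ligand pairs 0 (at most 15), and the test over all groups 792 (316 to 1509). The 8 genes had 591 to 6888 counts per library, and outside Basal their spread exceeded counting error throughout. The spread between 4 or 5 libraries limits what could be resolved. The 95% intervals given above are not adjusted for the number of tests. Some exclude 0, as for Ppargc1a in Cort against Vehicle (-26.5% to -5.83%), although none of the 8 genes was called after adjustment in the reported fit.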
